A study of Mus musculus with 6 samples.

Results

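NMDA receptors are glutamate-gated channels, and the 7 mouse genes that encode their subunits, Grin1, Grin2a, Grin2b, Grin2c, Grin2d, Grin3a and Grin3b, are described here in neurons of the mammillary part of the hypothalamus. The members were taken by gene name from the deposited expression table, where all 7 occur once among 55414 genes. Fluorescent neurons of male mice were drawn into glass electrodes from papain-digested slices labelled MM, and the series names 3 biological replicates for each of 2 neuron classes. The classes are PV-positive neurons (libraries numbered 6, 7 and 8), marked through parvalbumin, a calcium-binding protein, and Drd2-positive neurons (libraries numbered 1, 2 and 3), marked through the D2 dopamine receptor. The driver lines, the reporter, the age of the mice and the number of cells or mice behind each library are not stated in the labels, so the p-values below measure only the spread between these libraries, which may be partly technical.

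An NMDA receptor is built around obligatory GluN1 subunits, encoded by Grin1, which bind glycine or D-serine. The GluN2 subunits (Grin2a to Grin2d) bind glutamate and set how fast the current decays: receptors with GluN2A close sooner than those with GluN2B, and in the forebrain GluN2A gains on GluN2B as synapses mature. GluN2C and GluN2D give channels that magnesium blocks less. The GluN3 subunits (Grin3a and Grin3b) bind glycine, and receptors that hold them pass less calcium and resist magnesium block.

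Reads must be told apart between related genes for the values to hold, so the coding sequences of the 7 genes (GENCODE M21, build GRCm38) were searched for stretches in common. The longest run that Grin2a and Grin2b share without a mismatch is 24 bases, agtgacaagaagttccagagacct, and the longest run between any 2 of the 7 genes is 34 bases, between Grin2b and Grin2c. The labels do not state the read length.

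The files hold FPKM, that is, fragments per kilobase of a gene for every 1e6 fragments, a level per length. The exon length that fits joins the exons of all annotated transcripts of a gene, for Grin1 9700 bases over 14 transcripts. How genes compare within a library therefore depends on that length. Multiplied by exon length, every value above 0 of the 7 genes lay within 0.01 read of a whole number. The denominators were 27.7 to 29.8 in PV and 23.8 to 33.7 in Drd2, in units of 1e6 fragments. Reads of the 7 genes together numbered 12827, 4870 and 14545 in PV libraries 6, 7 and 8, against 20335, 14594 and 6989 in Drd2 libraries 1, 2 and 3. Pvalb lay between 349 and 563 FPKM in PV libraries and between 10.4 and 99.5 FPKM in Drd2 libraries. Drd2 was at 0.0132 FPKM in PV library 6 and listed at 0 in the other PV libraries, against 42.7, 55.0 and 7.74 FPKM in Drd2 libraries 1, 2 and 3. Drd2 library 3 therefore held the least Drd2 and the most Pvalb of its group, and its NMDA receptor values are given separately below. The neuronal marker Snap25 and the glutamate transporter gene Slc17a6 were above 100 FPKM in every library. Of 6 neuronal markers, Snap25 lay higher in PV without overlap (751 to 1109 FPKM, against 202 to 503 in Drd2). Tubb3 lay lower in PV without overlap (61.7 to 311 FPKM, against 428 to 563 in Drd2), and the others overlapped. Of 6 mammillary markers, Sim1 was below 2 FPKM in every library. Foxb1 lay lower in PV without overlap (4.19 to 24.0 FPKM, against 26.4 to 76.4 in Drd2), and the others overlapped. Of all tested genes, 19.0% did not overlap between the groups.

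Markers of other cells were present. The 6 microglial markers summed to 201 to 643 FPKM in PV libraries and to 12.05, 39.3 and 1415 FPKM in Drd2 libraries 1, 2 and 3. The 5 markers of oligodendrocyte precursors summed to 10.7 to 24.8 FPKM in PV libraries and 1.67 to 4.35 FPKM in Drd2 libraries, with Pdgfra at 1.13 FPKM or less and Cspg4 near 0 throughout, and the 4 haemoglobin genes summed to 743 to 3203 FPKM in PV and to at most 11.5 FPKM in Drd2. The summed astrocyte markers (10.6 to 35.3 FPKM in PV, 2.94 to 26.9 in Drd2) and oligodendrocyte markers (67.7 to 312 FPKM in PV, 74.2 to 1235 in Drd2) overlapped between the groups, but 1 marker of each list, named here after its values were seen, did not. Of 6 oligodendrocyte markers, Mog was at 2.54, 0 and 0.228 FPKM in PV libraries 6, 7 and 8, against 51.5, 254 and 7.85 FPKM in Drd2 libraries 1, 2 and 3. Of 6 astrocyte markers, Aldh1l1 was at 8.54, 5.08 and 0.992 FPKM in PV, against 0.295, 0.524 and 0.975 FPKM in Drd2. The 4 vascular markers summed to less than 1 FPKM in each library. Their part in the results below was not tested.

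Among the GluN2 and GluN3 genes, Grin2a had the highest level in each PV library and Grin2b or Grin3a in each Drd2 library. Grin1 averaged 9.70 FPKM in PV and 9.83 FPKM in Drd2. No NMDA receptor gene passed the test across all genes. The test was limma on log2(FPKM + 1), a scale that understates the folds of weakly expressed genes, with Benjamini-Hochberg adjustment over 11478 genes that had at least 1 FPKM in at least 3 libraries. Of the 7 members, 4 met that filter: Grin1, Grin2a, Grin2b and Grin3a, the last only through the Drd2 libraries. None passed at an adjusted p of 0.05, where 0.261% of all genes passed (0.0436% higher in PV and 0.218% lower in PV), and 2 had an unadjusted p below 0.05, as did 12.8% of all genes. By limma voom on reads recovered from FPKM none of the 4 passed, where 22 of all genes did. The unadjusted p in voom was 0.00470 for Grin2a, 0.0681 for Grin2b, 0.0861 for Grin3a and 0.518 for Grin1. All log2 folds are PV minus Drd2, and the median over all tested genes was -0.28. Pvalb and Drd2, the genes that mark the classes, had log2 folds of 3.93 and -4.79. Neither of them passed (limma adjusted p = 0.0501 for each), and Drd2 met the filter only through the Drd2 libraries. Failing this threshold therefore does not show that a gene is alike in the 2 classes.

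**Figure D1:**
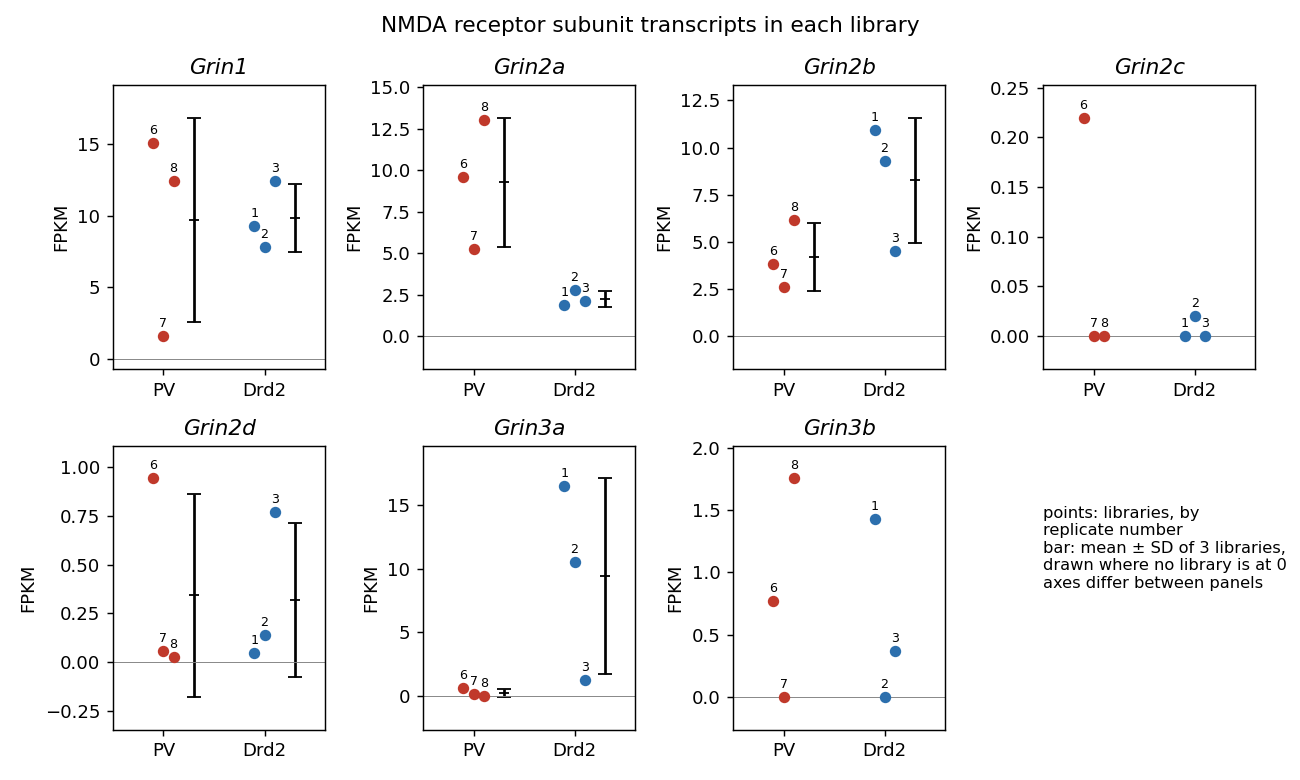
FPKM of the 7 NMDA receptor genes in each library, with PV on the left and Drd2 on the right of each panel, points numbered by replicate, and the mean with its SD (n = 3) where no library is at 0. The PV points of Grin2a sit between 5.23 and 13.0 FPKM, all above the Drd2 points, and those of Grin3a sit at 0.626 FPKM or below, under all Drd2 points.

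Grin1, the gene of the obligatory subunit (chromosome 2, 25291181 to 25319187, minus strand), was at 15.1, 1.57 and 12.4 FPKM in PV libraries 6, 7 and 8, against 9.27, 7.78 and 12.4 FPKM in Drd2 libraries 1, 2 and 3. The groups overlapped, and PV library 7 lay far below the other 5 libraries. PV library 7 also had the fewest genes at 1 FPKM or more, 8610 against 10293 to 12398 in the other libraries, and the fewest genes above 0, 12873 against 15696 to 18506, and the part of this in its values was not tested. Grin1 averaged 9.70 ± 7.16 FPKM in PV and 9.83 ± 2.38 FPKM in Drd2 (SD, n = 3 each), and its log2 fold was -0.37 ± 0.76 (SE; adjusted p = 0.868 in limma). Without PV library 7 the log2 fold was 0.46, so the sign rested on that library. The value in PV library 7 came from 422 recovered reads, which by counting error alone gives 1.43 to 1.73 FPKM (exact Poisson 95% interval). The exons of Grin1 overlap the antisense gene Grin1os over 1307 bases, 13.5% of their length, and no label states how the counting treated strand, so reads there cannot be assigned. Grin1os was at 0.232 FPKM or less in all libraries.

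Grin2a (chromosome 16, 9567898 to 9995560, minus strand) was at 9.59, 5.23 and 13.0 FPKM in PV libraries 6, 7 and 8, against 1.85, 2.78 and 2.15 FPKM in Drd2 libraries 1, 2 and 3. All PV libraries lay above all Drd2 libraries, as they did for 5.83% of tested genes (19.0% of tested genes had no overlap in either direction). The means were 9.27 ± 3.90 FPKM in PV and 2.26 ± 0.477 FPKM in Drd2 (SD, n = 3 each), a ratio of 4.10. The log2 fold was 1.59 ± 0.64 (SE), and it did not pass across all genes (limma unadjusted p = 0.0326, adjusted p = 0.336). Relative to the median of all genes it was 1.87. It was above 0 in every alternative setting, from 0.94 with a pseudocount of 5 FPKM to 2.01 with quantile normalization, and adjusted p ran from 0.215 to 0.649. Recovered reads numbered 2595 to 6613 in PV and 917 to 1499 in Drd2.

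Grin2b (chromosome 6, 135713233 to 136173511, minus strand) was at 3.80, 2.61 and 6.16 FPKM in PV libraries 6, 7 and 8, against 11.0, 9.28 and 4.53 FPKM in Drd2 libraries 1, 2 and 3. Drd2 libraries 1 and 2 were the highest, and Drd2 library 3 lay within the PV range. The means were 4.19 ± 1.80 FPKM in PV and 8.25 ± 3.33 FPKM in Drd2 (SD, n = 3 each), and the log2 fold was -0.82 ± 0.64 (SE; adjusted p = 0.626 in limma). The fold was below 0 in all settings, also relative to the median of all genes, where it was -0.54.

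Grin2c (chromosome 11, 115249169 to 115267243, minus strand), best known from cerebellar granule cells, was at 0.220 FPKM in PV library 6 and at 0.0198 FPKM in Drd2 library 2, from 33 and 3 recovered reads. It was listed at 0 in the other 4 libraries, where 3 reads would be worth 0.0177 to 0.0250 FPKM, a limit that covers counting error only. The astrocyte markers had their highest sum in PV library 6 and their next highest in Drd2 library 2 (35.3 and 26.9 FPKM), and their part in the Grin2c values was not tested. Grin2d (chromosome 7, 45831883 to 45878378, minus strand) was at 0.942, 0.0543 and 0.0265 FPKM in PV libraries 6, 7 and 8, against 0.0445, 0.140 and 0.769 FPKM in Drd2 libraries 1, 2 and 3. In each group 1 library held most of the Grin2d, PV library 6 and Drd2 library 3, and these were also the libraries with the highest microglial sums, 643 and 1415 FPKM, whose part was not tested. Neither gene reached 1 FPKM in any library, so neither was tested.

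The balance of Grin2a and Grin2b, the main GluN2 genes here, can be read within each library and does not depend on how libraries are scaled. Grin2a made up 71.6%, 66.7% and 67.9% of the summed FPKM of Grin2a and Grin2b in PV libraries 6, 7 and 8 and 14.5%, 23.1% and 32.1% in Drd2 libraries 1, 2 and 3. Every PV library held at least 2.00 times as much Grin2a as Grin2b, and every Drd2 library held more Grin2b than Grin2a. The share averaged 68.7% ± 2.58 over PV libraries and 23.2% ± 8.83 over Drd2 libraries (SD, n = 3 each), 45.5 percentage points apart (exact permutation p = 0.1, 2-sided, the smallest that 3 against 3 libraries allow; 0.2 adjusted over the 2 ratios tested). The spread between PV libraries was small even though their Grin1 levels ranged widely, and Drd2 library 3 was the Drd2 library nearest to PV.

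**Figure D2:**
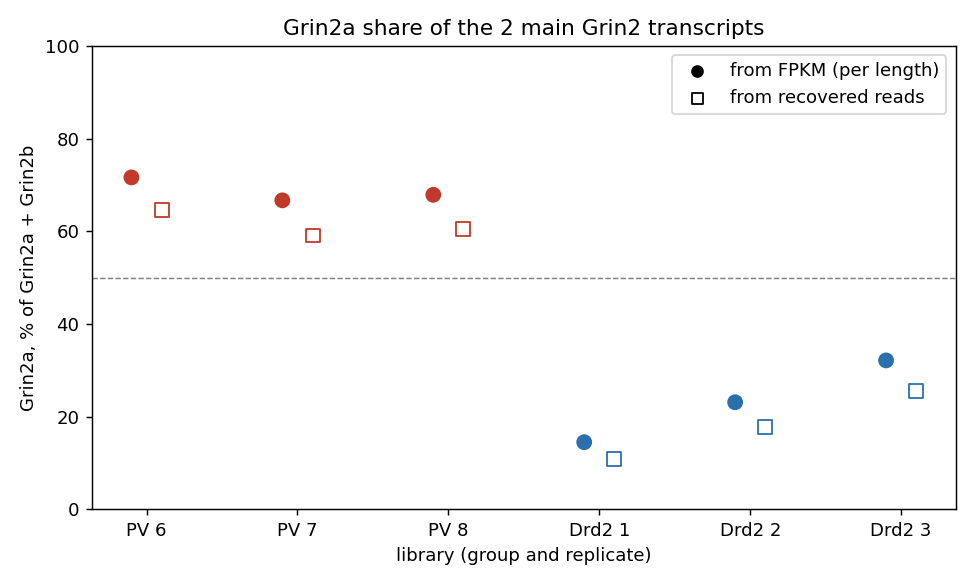
Grin2a as a percent of Grin2a plus Grin2b in each library, PV libraries on the left, from FPKM (filled circles) and from recovered reads (open squares). PV libraries sit above the dashed line of equal shares and Drd2 libraries below it in both measures.

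The share depends on gene length, since FPKM divides Grin2a reads by 17933 exon bases and Grin2b reads by 24842. In recovered reads, with no length in them, Grin2a made up 64.6%, 59.1% and 60.4% in PV libraries 6, 7 and 8 and 10.9%, 17.8% and 25.5% in Drd2 libraries 1, 2 and 3. The Wilson 95% intervals of these shares, which cover counting error only, ran from 57.6% upwards in PV and up to 26.9% in Drd2. The 4 GluN2 genes together, set against Grin1, gave a log2 ratio (with 1 FPKM added to each side) of -0.05, 1.79 and 0.59 in PV libraries 6, 7 and 8 and of 0.43, 0.59 and -0.67 in Drd2 libraries 1, 2 and 3. Here the groups overlapped, with means of 0.78 ± 0.93 for PV and 0.12 ± 0.69 for Drd2 (SD, n = 3 each; exact permutation p = 0.5, and 0.5 adjusted). The difference of 0.66 became -0.24 without PV library 7 and Drd2 library 3.

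Grin3a (chromosome 4, 49661611 to 49845744, minus strand) showed the widest gap between the group means of the 4 tested genes. It was at 0.626, 0.135 and 0.0115 FPKM in PV libraries 6, 7 and 8, against 16.5, 10.5 and 1.24 FPKM in Drd2 libraries 1, 2 and 3. All PV libraries lay below all Drd2 libraries, as they did for 13.1% of tested genes, with Drd2 library 3 nearest to PV. Grin3a met the filter only through the Drd2 libraries, so this separation was fixed by the filter and lends no support. The p-values of Grin3a below carry the same limit. Recovered reads numbered 229, 46 and 4 in PV libraries 6, 7 and 8, against 6833, 3881 and 362 in Drd2 libraries 1, 2 and 3. The mean was 0.258 ± 0.325 FPKM in PV and 9.42 ± 7.69 FPKM in Drd2 (SD, n = 3 each). The log2 fold was -2.64 ± 0.84 (SE), -2.36 relative to the median of all genes, and did not pass (limma unadjusted p = 0.0110, adjusted p = 0.224). Without Drd2 library 3 it was -3.53 (adjusted p = 0.150), the lowest adjusted p of all settings. Since PV levels were near 0, the fold moved with the scale, from -1.28 with a pseudocount of 5 FPKM to -5.98 by voom. Within its own group Drd2 library 3 was lowest in both Grin3a (1.24 FPKM) and the Drd2 gene (7.74 FPKM), whereas library 1 had the most Grin3a and library 2 the most Drd2. The labels do not state whether cells were pooled. Where a library pools cells, fewer cells with a transcript and less transcript per cell cannot be told apart.

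Grin3b (chromosome 10, 79970715 to 79977190, plus strand), known from motor neurons, was at 0.774 and 1.75 FPKM in PV libraries 6 and 8, against 1.43 and 0.369 FPKM in Drd2 libraries 1 and 3, and was listed at 0 in PV library 7 and Drd2 library 2. The groups overlapped, and 2 libraries at 1 FPKM or more were too few for the test. Its exons overlap those of Tmem259 on the other strand over 1059 bases, 32.1% of their length, and Tmem259 was at 0.504 to 8.85 FPKM in PV and 4.19 to 6.62 FPKM in Drd2. Without strand, Grin3b and Tmem259 reads there cannot be told apart, so the level of Grin3b is uncertain.

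**Figure D3:**
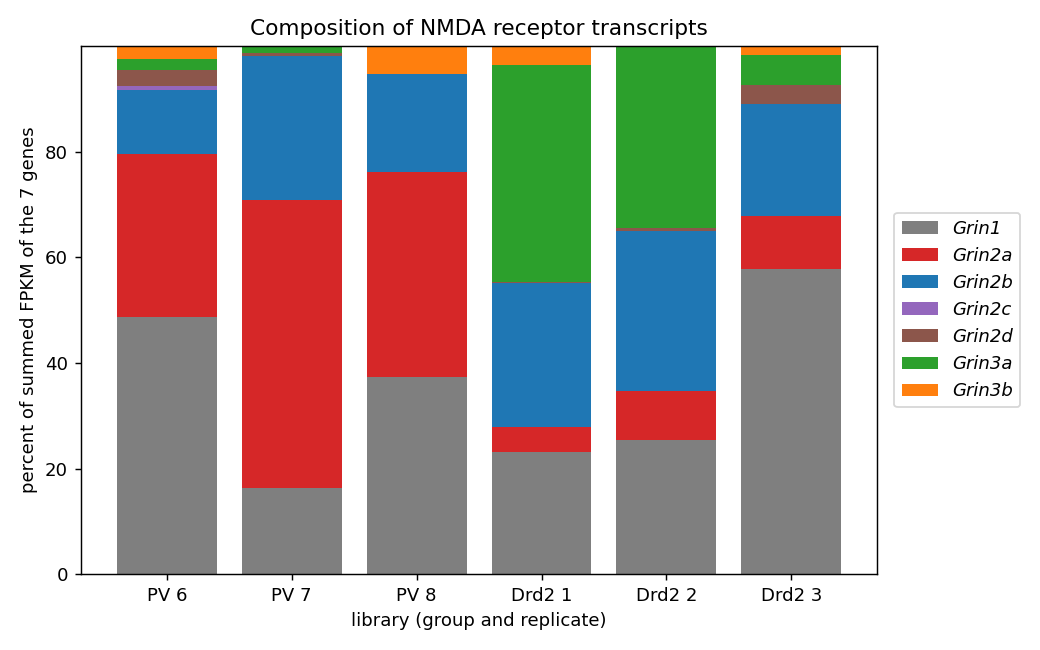
Each bar is a library, PV on the left, and shows the percent that each of the 7 genes made up of their summed FPKM. Grin2a takes 30.9% to 54.4% of PV bars and 4.63% to 9.98% of Drd2 bars, and Grin3a takes at most 2.02% of PV bars and 5.76% to 41.2% of Drd2 bars.

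Taking the 7 genes as a whole, their summed FPKM was 31.0, 9.60 and 33.4 in PV libraries 6, 7 and 8 and 40.0, 30.5 and 21.5 in Drd2 libraries 1, 2 and 3, with overlap. The order of levels differed. Among PV libraries, Grin2a was the first of the 7 genes in libraries 7 and 8 and came after Grin1 in library 6, and Grin2a stood above Grin2b in each. Among Drd2 libraries, Grin3a was first in libraries 1 and 2, followed by Grin2b, Grin1 and Grin2a, whereas Grin1 was first and Grin3a came after Grin2a in library 3. By the spread of the group means, Grin1 and Grin2a were not separated in PV, and Grin3a, Grin1 and Grin2b were not separated in Drd2. In recovered reads, which favour long genes, Grin2a was first in all PV libraries, and Grin2b was first in Drd2 libraries 1 and 2, ahead of Grin3a. Relative to Grin1, as a ratio of FPKM, Grin3a stood at 0.0415, 0.0861 and 0.000924 in PV libraries 6, 7 and 8, against 1.78, 1.35 and 0.0995 in Drd2 libraries 1, 2 and 3. The highest PV ratio came close to that of Drd2 library 3.

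**Figure D4:**
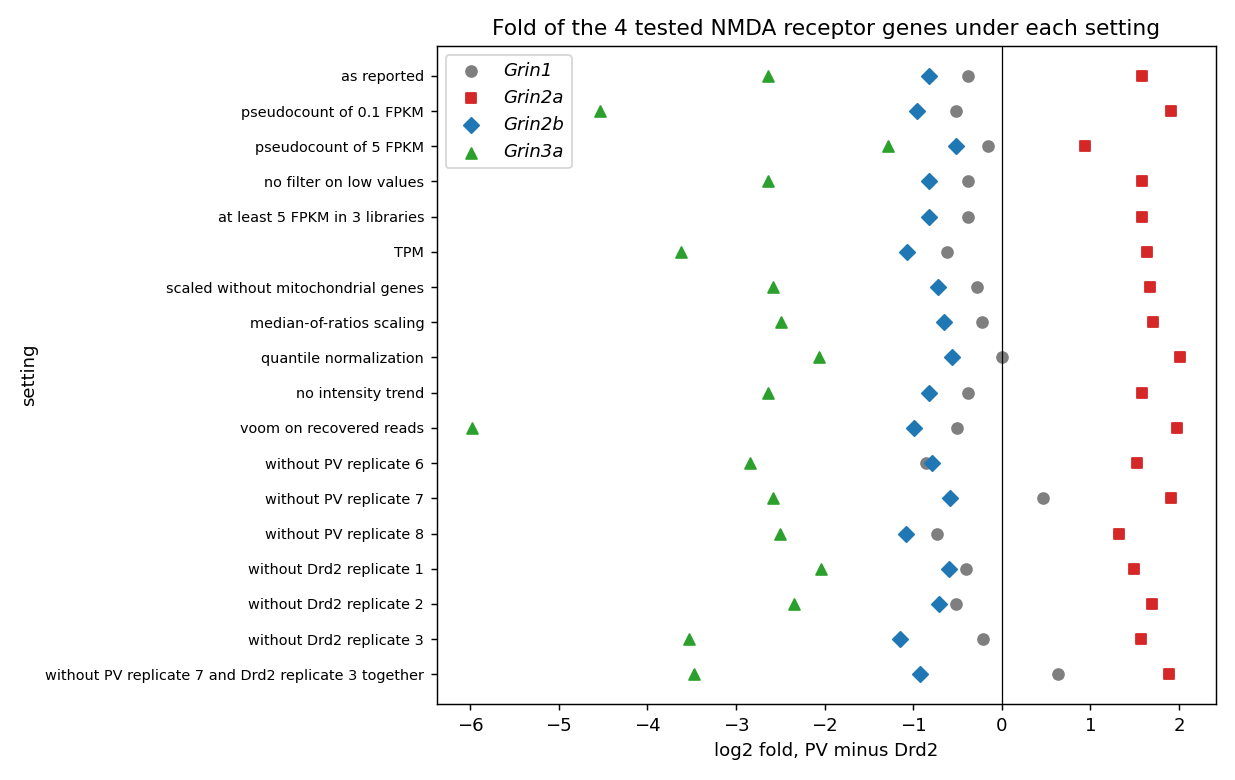
Log2 fold (PV minus Drd2) of the 4 tested genes under the reported setting, at the top, and each alternative. Grin2a stays right of 0 and Grin2b and Grin3a left of it in each row where they were tested, while Grin1 lies at 0.46 and 0.63 in the rows that leave out PV library 7 and at 0.00040 with quantile normalization.

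The genes with the most similar pattern were taken as those with the smallest root mean square difference from each tested member over the 6 libraries, on the log2(FPKM + 1) scale with each gene centred on its own mean. For Grin2a they were Isoc1 (0.11) and BC030343 (0.14), and Isoc1 was at 37.8, 26.2 and 56.7 FPKM in PV libraries 6, 7 and 8, against 10.1 to 14.6 FPKM in Drd2 libraries. For Grin2b they were the methyltransferase gene Ntmt1 (0.11), the prion protein gene Prnp (0.12) and the transcription factor gene Mnt (0.14). For Grin3a they were Pygl, liver-type glycogen phosphorylase (0.26), Hbegf, a growth factor of the EGF family (0.37), and Nog, the BMP antagonist noggin (0.39). Pygl was at 0.185, 0 and 0.00512 FPKM in PV libraries 6, 7 and 8, against 10.6, 6.03 and 1.08 FPKM in Drd2 libraries 1, 2 and 3. For Grin1 they were Tchp (0.16), the kainate receptor gene Grik5 (0.16) and Pnkd (0.17), which shared its low value in PV library 7, where Grik5 was at 1.43 FPKM. Each was picked from all tested genes for this likeness, and no test was made.

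Genes that hold, modify or supply the receptor were read from 6 lists with 79 genes. Of these 65 were tested, 24 with a fold above 0 and 41 below, with a median of -0.19 against -0.28 for all genes. None passed in limma or in voom, and 12 (18.5%) had an unadjusted p below 0.05 in limma, against 12.8% of all genes. All PV libraries lay above all Drd2 libraries for 5 of the 65 and below them for 10, against 5.83% and 13.1% of all genes. All folds named below failed the threshold across all genes. The median of the glycine and D-serine list was below 0 in each setting, and those of the other 5 lists changed sign in at least 1.

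Among the scaffold genes of the postsynaptic density, 13 of 18 were tested, with a median log2 fold of -0.14, which was 0.50 without PV library 7, -0.62 without PV library 6 and 0.24 with quantile normalization. The Dlg genes encode related scaffolds that bind the tails of GluN2 subunits. Dlg3, encoding SAP102, was at 9.41, 17.3 and 9.09 FPKM in PV libraries 6, 7 and 8, against 3.02, 5.12 and 4.05 FPKM in Drd2 libraries 1, 2 and 3 (log2 fold 1.32, limma adjusted p = 0.389). Dlg2, encoding PSD-93, was at 2.25, 0.714 and 1.22 FPKM in PV, against 6.54, 5.91 and 5.30 FPKM in Drd2 (log2 fold -1.58, limma adjusted p = 0.337). Dlg1, encoding SAP97, had a log2 fold of -1.45. Baiap2, encoding the actin regulator IRSp53, was at 14.0, 6.87 and 2.07 FPKM in PV, against 27.6, 36.9 and 26.3 FPKM in Drd2 (log2 fold -2.12, limma adjusted p = 0.202). These 4 were named for having the smallest p in the list, and none overlapped between the groups. Of the 13 tested, 2 lay higher and 4 lower in PV without overlap, where 19.0% of all tested genes did not overlap. Dlg4, encoding PSD-95 and added after its values were seen, did overlap, at 2.08, 0.150 and 0.444 FPKM in PV, against 3.26, 3.13 and 0.943 FPKM in Drd2 (log2 fold -0.91, limma adjusted p = 0.590).

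Of 14 genes of calcium-dependent signalling, 12 were tested, with a median of -0.06 that was 0.16 without Drd2 library 2 and -0.31 without Drd2 library 3. Nos1ap, the adaptor of neuronal nitric oxide synthase, had the smallest p of all lists and was at 1.14, 0.0349 and 0.506 FPKM in PV libraries 6, 7 and 8, against 25.6, 12.2 and 5.19 FPKM in Drd2 libraries 1, 2 and 3 (log2 fold -3.12 ± 0.75, SE; limma adjusted p = 0.129). Like Grin3a it was lowest in Drd2 library 3 within its group, and it met the filter only through the Drd2 libraries. Among PV libraries only library 6 reached 1 FPKM, so the p-values of Nos1ap carry the limit given for Grin3a. Rasgrf1, a calcium-dependent activator of Ras, was at 10.2, 7.06 and 10.2 FPKM in PV, against 38.0, 29.3 and 28.6 FPKM in Drd2 (log2 fold -1.70 ± 0.46, SE; limma adjusted p = 0.165). Camk2d, a subunit of the calcium/calmodulin kinase CaMKII, had a log2 fold of 1.85. Camk2d was at 7.74 to 9.23 FPKM in PV libraries and 0.531 to 3.83 FPKM in Drd2 libraries.

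Of 14 kinases and phosphatases that act on receptor subunits, 13 were tested, and no tested gene was free of overlap between the groups (median -0.19, and 0.0084 without PV library 7 and 0.21 with quantile normalization). Ptpn5, the striatal-enriched phosphatase STEP, had a log2 fold of -1.26, the kinase genes Fyn and Cdk5 of -1.35 and -0.90, and the calcineurin gene Ppp3cb of 0.80. All 13 genes of transport and surface delivery were tested, with a median of -0.55 and 9 folds below 0. Without PV library 7 the median was 0.14 and 5 folds were below 0, so the direction rested on that library. In that list Lin7a and Lin7c, adaptors of the complex that carries GluN2B along dendrites, had log2 folds of -1.68 and -1.13, the clathrin adaptor gene Ap2m1 of -0.75 and the actin regulator gene Wasf1 of 1.05.

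In the list for glycine and D-serine, the co-agonists of GluN1, 8 of 14 genes were tested, and all 8 had a fold below 0 with a median of -1.18, where 38.4% of all tested genes had a fold above 0. With median-of-ratios scaling 6 of the 8 and with quantile normalization 7 of the 8 were below 0, as were 7 of the 8 when any single library other than PV library 7 was left out. Without the filter on low values, 11 of 13 genes were below 0 and the median was -0.35. Slc1a4, a transporter of neutral amino acids including serine, was at 2.85, 0.0828 and 1.50 FPKM in PV libraries 6, 7 and 8, against 8.50, 12.3 and 7.02 FPKM in Drd2 libraries 1, 2 and 3 (log2 fold -2.20, limma adjusted p = 0.230). Shmt2, the mitochondrial enzyme that interconverts serine and glycine, was at 13.2, 0.0929 and 4.07 FPKM in PV, against 21.8, 15.7 and 19.8 FPKM in Drd2 (log2 fold -2.22, limma adjusted p = 0.333). Phgdh, the entry enzyme of serine synthesis, had a log2 fold of -2.60 and Slc7a10, a transporter of glycine and D-serine, of -1.78, both with overlap. Phgdh and Slc7a10 are also made by astrocytes, whose summed markers overlapped between the groups, and the part of astrocytes was not tested. Of the 6 genes of glutamate uptake, all tested (median 0.0016, and -0.11 without Drd2 library 3 and 0.21 without Drd2 library 2), Glul, glutamine synthetase, was at 124, 119 and 144 FPKM in PV, against 57.2, 109 and 66.2 FPKM in Drd2 (log2 fold 0.78, limma adjusted p = 0.441), without overlap. The uptake genes Slc1a2, Slc1a1 and Slc1a6 had log2 folds of 1.06, -0.83 and -0.90, all with overlap. Slc1a3 of this list is also an astrocyte marker above, and the part of other cells in the values of Glul and the uptake genes was not tested.

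**Figure D5:**
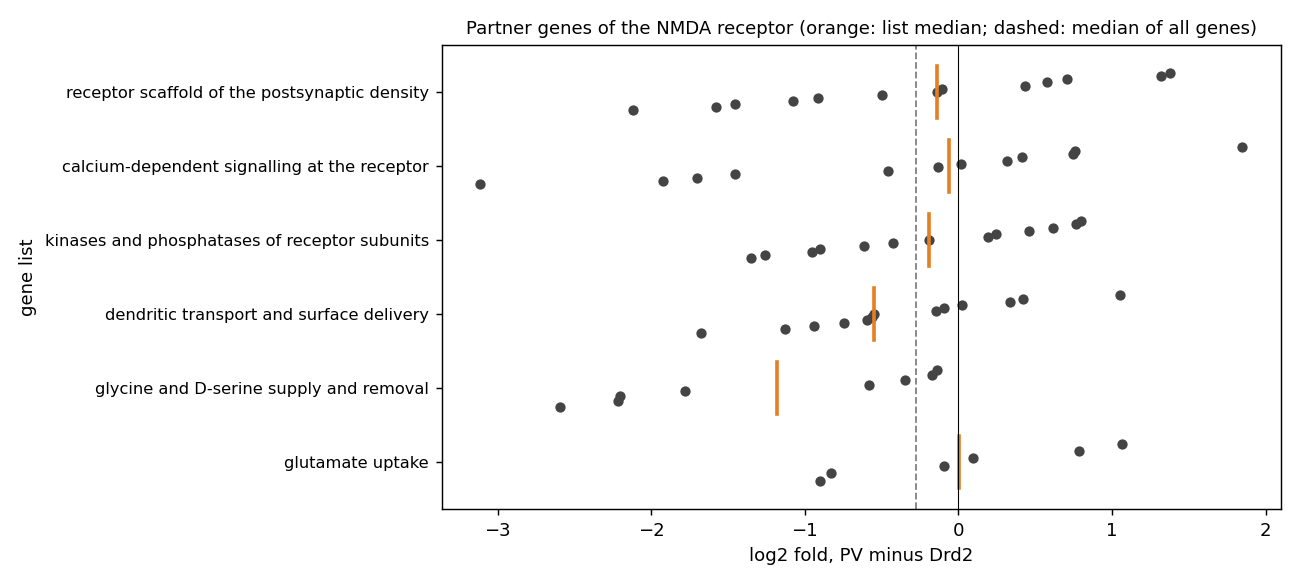
Log2 fold (PV minus Drd2) of each tested partner gene, 1 row per list, with the list median in orange and the median of all tested genes, -0.28, as a dashed line. The glycine and D-serine list lies wholly below 0 in this setting, 6 of its 8 genes with median-of-ratios scaling and 7 of 8 with quantile normalization, and the other lists spread on both sides.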

How the data were processed

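RNA of aspirated neurons was sequenced after SMARTer library preparation, per the labels' protocols. The FPKM values were made and deposited by the authors; alignment with STAR, without a version, is named per the submitters' processing notes, beside mm10 and the human builds hg38 and GRCh38, and all gene identifiers are of mouse. No source used here states the quantifier, strand setting or annotation. GENCODE M21 (52081 of 55414 identifiers found, 94.0%) gave positions, exon lengths and sequences.

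The worth of 1 read per library was found from low FPKM values times exon length: among values of up to 20 reads, 97.9% to 98.8% were whole to within 0.01 read, against 2% by chance. A listed 0 may be a failed estimate.

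PV and Drd2 were compared in R 4.3.3 with limma 3.58.1, using an intensity trend, on log2(FPKM + 1), 2-sided, over genes that reached 1 FPKM in 3 or more of the 6 libraries, and single ratios by exact permutation. The test was tested on simulated data. Changes were placed there only in genes with a higher mean level than any of the 7 members, so the simulation does not cover genes at their levels. Members, lists and rules were chosen with earlier results of these data known. The rule names the 7 members, the 4 genes with the smallest p in each list, and the 3 genes nearest in pattern to each tested member, leaving out predicted and unnamed genes. A few items that the rule names are not reported here.
Alternatives were other pseudocounts, filters, scalings, variance models, voom and leaving out libraries. Shares of recovered reads were added after the data were seen.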

Additional observations from a re-analysis of the deposited data

How the results depend on the processing

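Across all genes, 30 passed in limma. The number was 4 with a pseudocount of 0.1 FPKM, 68 with one of 5 FPKM, 0 without a filter on low values, 68 with quantile normalization and 46 without the intensity trend. It ran from 1 to 56 when 1 library was left out, and was 18 without PV replicate 7 and Drd2 replicate 3 together. No NMDA receptor gene and no partner gene passed in any setting. Scaling moved the median log2 fold of all genes to -0.50 (TPM), -0.19 (without mitochondrial genes), -0.13 (median of ratios) and 0.05 (quantile normalization). The folds of Grin2a, Grin2b and Grin3a had the reported sign under each alternative that tested them, and Grin3a was not tested at the filter of 5 FPKM. The fold of Grin1 was 0.00040 with quantile normalization, -0.86 to 0.46 with 1 library left out and 0.63 without PV replicate 7 and Drd2 replicate 3. The Grin2a share differed by 41.1 to 49.9 percentage points with 1 library left out, by 51.0 without both of those libraries and by 43.3 in recovered reads. The log2 ratio of GluN2 genes to Grin1 differed by 0.15 to 1.07 with 1 library left out and by -0.24 without both. The cause was not tested. Differences of this size in single genes were not separated from the spread between libraries. No paired analysis was possible because the groups share no replicate numbers.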
